A study of Mus musculus with 28 samples.

Results

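This comparison set the livers of 7 mice heterozygous for Sirt6 (HZ) against those of 7 wild-type mice (WT), all given the compound WY-14643 (WY). They were chosen as the 14 WY libraries among the 28 libraries of the series. All animals were of the 129svj strain and 11 to 13 months old, and each received WY at 50 mg/kg by gavage in 0.5% carboxymethylcellulose, with the liver taken 12 h later. The other 14 animals, 7 HZ and 7 WT, received carboxymethylcellulose alone and are the vehicle groups. The labels name the heterozygous genotype and say nothing further of the allele or of sex. Each animal has 1 library from flash-frozen liver, so the 7 libraries of a group are separate animals.

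Sirt6 is a nuclear, NAD-dependent enzyme that removes acetyl and longer acyl groups from histones and other proteins, and it is known in liver for restraining glycolytic and lipogenic genes. WY-14643 activates PPARα, a fatty acid sensor of the nuclear receptor family that switches on fat oxidation in hepatocytes during fasting. The comparison asks how the livers of Sirt6 heterozygotes differ from wild type once PPARα has been activated.

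The 14 libraries held 15795201 to 19940067 counts assigned to genes, with 15015 to 15633 genes detected. All 10 hepatocyte markers had reads in these libraries, and their summed level ran from 78631 to 88894 CPM (reads of a gene relative to its library's size) in WT and from 57523 to 92542 in HZ. Ddx3y, which lies on the Y chromosome, was at 88.9 to 122 CPM in these libraries and Xist at no more than 0.752 CPM. On the first principal component of the 14 libraries, with 25.0% of the variance, WT lay between -14.5 and -6.85 and HZ between -5.03 and 42.8. HZ animals 21, 14 and 15 lay highest there, and with vehicle HZ animals 30 and 38 they also stood apart in earlier results over all libraries, so counts are given with and without these 5. A clock score, the mean log2 level of evening genes such as Dbp minus that of morning genes such as Arntl, was 2.48 ± 1.09 in WT and 1.06 ± 1.00 in HZ (SD, n = 7; two-sided exact permutation test over 3432 splits, p = 0.0297, adjusted p = 0.0446 over 3 library measures).

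Sirt6 itself checked the genotype labels. The gene lies on the minus strand of chromosome 10 from 81621785 to 81627797 (GRCm38). Its level was 2.27 to 4.18 CPM in WT with a median of 3.33, and 1.29 to 2.29 CPM in HZ with a median of 1.47. Of the 7 HZ animals, 6 lay below every WT animal, and the 1 that overlapped was level with the lowest WT animal. Sirt6 fell by 1.04 ± 0.16 on the log2 scale (SE; edgeR adjusted p = 0.00721). The exact permutation test of its log2 CPM gave p = 0.00117 (two-sided). The counts behind these values were small, 38 to 79 reads in WT and 23 to 42 in HZ. Under vehicle Sirt6 fell by 0.97, and the interaction term for this gene did not pass (adjusted p = 0.937).

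Across the 12607 genes tested, 398 differed between genotypes under WY (3.16%) at an adjusted p below 0.05, with 179 higher in HZ (1.42%) and 219 lower (1.74%). The rises were larger than the falls: the median log2 fold change was 0.40 among the genes that rose and -0.26 among those that fell, against 0.01 over all genes tested. Only 13 of the 398 changed by at least 1 on the log2 scale, and 330 changed by less than 0.5. An unadjusted p under 0.05 was found for 3033 of the 12607 genes, which is the background for such counts in the gene lists below. All 7 HZ values lay outside the range of the 7 WT values for 170 genes (1.35%), of which 94 also passed the test. With DESeq2 size factors in edgeR the split was 203 higher (1.61%) and 480 lower (3.81%) of 683 (5.42%). The same contrast gave 1102 calls in DESeq2 (8.74%), 400 higher (3.17%) and 702 lower (5.57%), and 934 in limma (7.41%), 377 higher (2.99%) and 557 lower (4.42%). Without the 5 HZ animals that stood apart, 48 genes passed in edgeR (0.378%), 28 higher (0.221%) and 20 lower (0.158%), with 40 of them among the 398. With 1 library left out the count ran from 74 genes (without WT animal 19) to 977 (without HZ animal 2), and it also moved by more than 1.5 times without WT animals 10, 11 or 24 or HZ animals 5, 15 or 21. Without the 5 HZ animals the sign of the difference was kept for 398 of the 398, with a median of 0.877 of the original log2 change. The 398 were called on data that include the remaining animals, so a kept sign is no independent support. Under WY that fit lacks HZ animals 14, 15 and 21 of the 7, so a lost call alone does not show a smaller difference. Levels are from bulk tissue, where fewer cells of a type and less RNA per cell cannot be told apart.

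**Figure D1:**
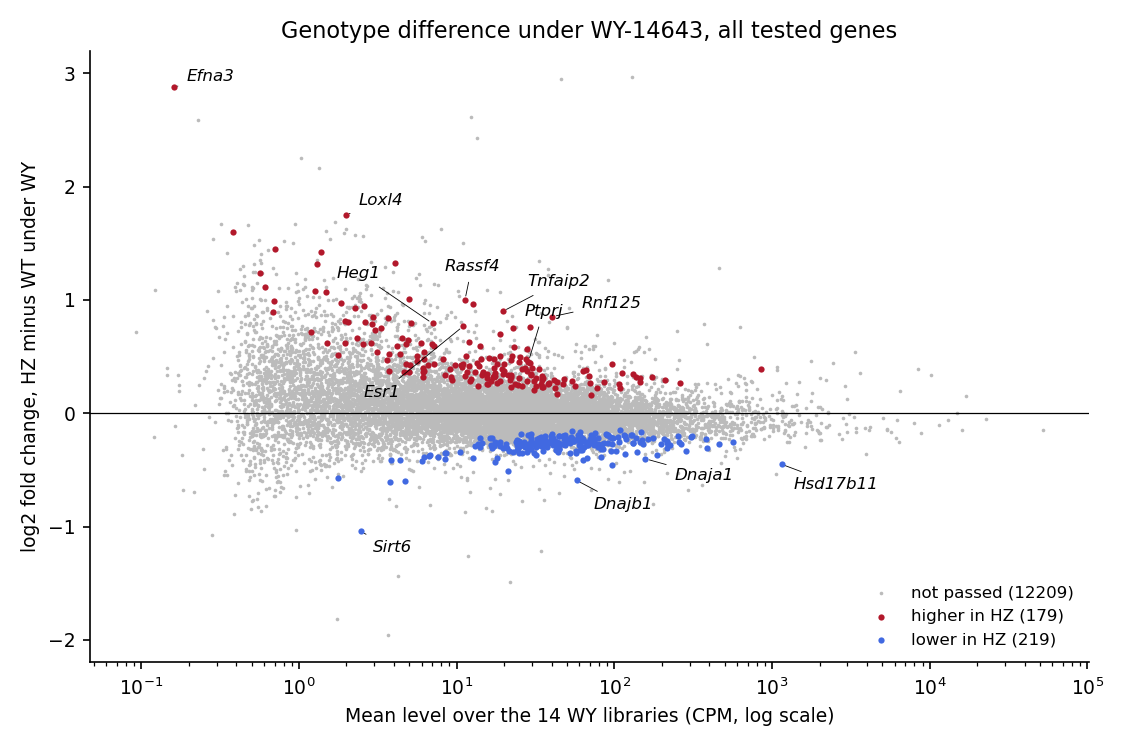
Each point is 1 of the 12607 tested genes, with its mean level over the 14 WY libraries (CPM, log axis) and its log2 fold change, HZ minus WT. The 219 genes that fell form a narrow band with a median of -0.26, the 179 that rose spread more widely around a median of 0.40, and 2 genes lie outside the drawn range.

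The 12 largest rises among genes at 5 CPM or more were led by Rassf4, Asap2, Tnfaip2 and Rnf125. Rassf4 (chromosome 6, 116633008 to 116673952), a Ras association domain protein, was at 6.07 to 10.1 CPM in WT (median 7.17) and 8.43 to 23.4 in HZ (median 14.7). It rose by 1.00 ± 0.20 (adjusted p = 0.0134), and 6 of 7 HZ animals were above every WT animal. Tnfaip2, a TNF-inducible gene of endothelial and myeloid cells, was at 7.32 to 20.8 CPM in WT (median 12.3) and 16.1 to 32.3 in HZ (median 25.0). Its rise was 0.90 ± 0.19 (adjusted p = 0.0176), again with 6 HZ animals above the WT range. Asap2, a GTPase-activating protein for Arf, rose by 0.97 ± 0.22, and Rnf125, a ubiquitin ligase that limits RIG-I signalling, by 0.85 ± 0.19 (adjusted p = 0.0197 and 0.0187).

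Esr1, the estrogen receptor alpha, which hepatocytes also express, was at 5.94 to 11.5 CPM in WT (median 8.12) and 8.08 to 19.7 in HZ (median 12.8). It rose by 0.77 ± 0.20 (adjusted p = 0.0379), with overlapping groups, and did not pass without the 5 HZ animals (0.64, adjusted p = 0.177). Heg1, a receptor of endothelial junctions, was 4.05 to 6.01 CPM in WT and 6.65 to 12.7 in HZ, so the groups did not overlap, and it rose by 0.79 ± 0.15 (adjusted p = 0.0134). Also among the 12 largest were the transporter Abca9 (0.80), the transcriptional corepressor Atxn1 (0.76), the phospholipid flippase Atp11a (0.75), the nuclear envelope protein Syne1 (0.70), Ypel2 (0.63) and Phf15 (0.62), now named Jade2. Of these 12, only Atxn1 and Syne1 passed without the 5 HZ animals.

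The 12 largest falls at that level were smaller, from -0.59 for Dnajb1 to -0.39 for Josd2, a deubiquitinase. Hsd17b11 (chromosome 5, 103989762 to 104021919), a dehydrogenase found on lipid droplets, was abundant and separated the groups. Its level was 1216.3 to 1458.0 CPM in WT (median 1308.7) and 797.6 to 1074.0 in HZ (median 988.5). Hsd17b11 fell by 0.45 ± 0.10 (adjusted p = 0.0187) and kept its call without the 5 HZ animals. Slc27a1, a fatty acid transport protein, fell by 0.51 ± 0.13, and Hopx, a small homeodomain protein, by 0.46 ± 0.13 (adjusted p = 0.0368 and 0.0447), and both calls were lost without those animals.

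**Figure D2:**
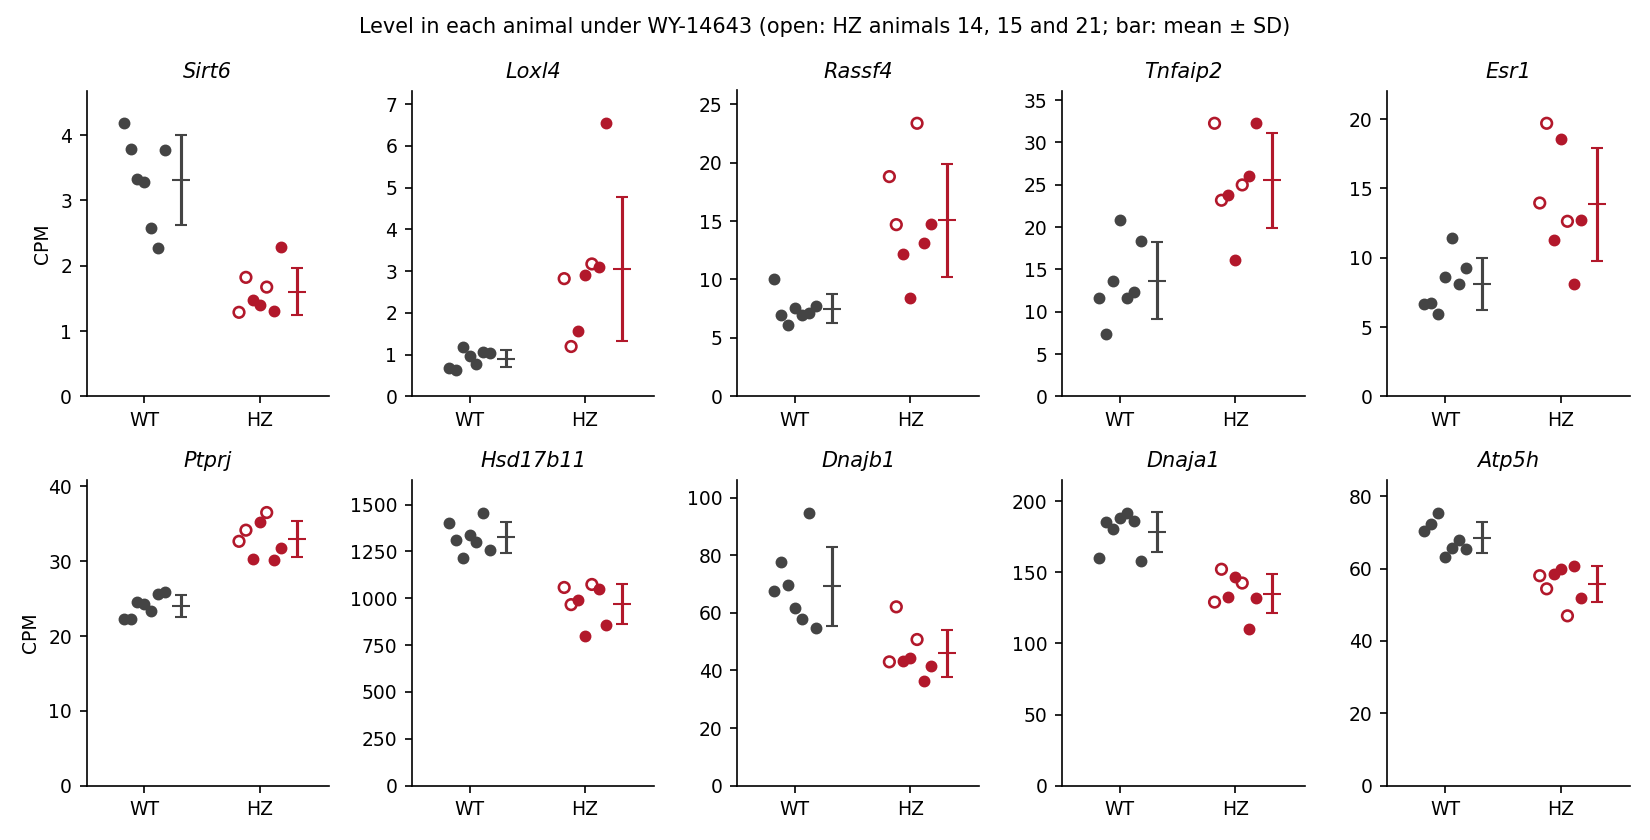
CPM of 10 genes in each WY animal, with WT in grey and HZ in red, open circles for HZ animals 14, 15 and 21, and the mean ± SD beside the points. The groups do not overlap for Loxl4, Ptprj, Hsd17b11, Dnaja1 and Atp5h, so the 4 HZ animals drawn as filled circles are also outside the WT range in these 5 panels.

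Besides the fit reported, 23 alternative fits were run, and 23 genes passed in every fit that tested them, 13 higher and 10 lower. Sirt6 was 1 of them. Ptprj, a receptor tyrosine phosphatase (chromosome 2, 90429754 to 90580647), was at 22.2 to 25.9 CPM in WT (median 24.3) and 30.2 to 36.5 in HZ (median 32.7). It rose by 0.46 ± 0.08 (adjusted p = 0.0107), and every HZ animal lay above every WT animal. F2r, the thrombin receptor PAR1, was 19.8 to 24.6 CPM in WT and 27.6 to 35.4 in HZ and rose by 0.48 ± 0.08 (adjusted p = 0.0107), also without overlap. Ceacam1, a liver adhesion protein that takes part in insulin clearance, rose by 0.33 ± 0.06. Elmsan1, a subunit of a histone deacetylase complex, rose by 0.49 ± 0.09, and Pip5k1c, a lipid kinase, by 0.29 ± 0.06. Rbm8a, a core protein of the exon junction complex, fell from 42.7 to 49.9 CPM in WT to 32.0 to 41.8 in HZ, a log2 change of -0.32 ± 0.06 (adjusted p = 0.0107).

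Among called genes without overlap, the largest changes were in weakly expressed genes. Loxl4, a lysyl oxidase family enzyme that acts on collagen and elastin (chromosome 19, 42593982 to 42612813), was at 0.631 to 1.17 CPM in WT (median 0.960) and 1.20 to 6.54 in HZ (median 2.90). It rose by 1.75 ± 0.31 (adjusted p = 0.0107) and by 1.96 without the 5 HZ animals, on 10 to 18 reads in a WT library and 21 to 120 in an HZ library. Efna3, an ephrin ligand, had 4 reads over the 7 WT libraries and 38 over the 7 HZ libraries, with a fitted change of 2.88 ± 0.63. The synaptic scaffold Ppfia4, Tmem194b and the kinesin Kif21b followed at 1.32, 1.11 and 0.93, each below 5 CPM, and these 3 did not pass without the 5 HZ animals.

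Several heat shock genes fell together in HZ livers. Heat shock proteins fold newly made or damaged proteins, and Hsp70 works with J-domain partners such as Dnaja1 and Dnajb1. Of 33 tested members, 5 fell and 0 rose (percent lower over all genes, 1.74%), and the median log2 difference of the 33 was -0.19. Dnaja1 (chromosome 4, 40722150 to 40737149) was at 158 to 192 CPM in WT (median 185) and 111 to 152 in HZ (median 133), without overlap. It fell by 0.40 ± 0.07 (adjusted p = 0.0126), and it was among the genes that passed in every fit. Dnajb1 (chromosome 8, 83608193 to 83612653) was at 54.8 to 94.9 CPM in WT (median 67.5) and 36.4 to 62.1 in HZ (median 43.2). It fell by 0.59 ± 0.13 (adjusted p = 0.0175), with 6 HZ animals below every WT animal, and passed in every fit too.

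The other 3 heat shock genes that fell were Hspa8, the constitutive Hsp70 (-0.41 ± 0.11), and the Hsp90 co-chaperones Chordc1 (-0.39 ± 0.10) and Ptges3 (-0.25 ± 0.07). Without the 5 HZ animals the median of the list was -0.21. In that fit 3 members passed, all lower (percent lower over all genes, 0.158%): Dnaja1, Dnajb1 and Chordc1. Under vehicle 3 of the 33 passed, all lower (percent lower over all genes, 1.77%), and the median was -0.18. Cct4, a subunit of the TRiC chaperonin, was the 1 of 14 chaperonin and prefoldin genes to fall (-0.17 ± 0.04; percent lower over all genes, 1.74%). Cct4 did not pass without the 5 HZ animals (adjusted p = 0.0910).

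Sequence before a RefSeq start of both J-domain genes is shown because heat shock factor binds inverted GAA units, and only 1 of the pair holds such a unit in this window. The 250 bases before a RefSeq start (GRCm38.p6) are printed 5′ to 3′, with matches to GAANNTTC or TTCNNGAA, searched on both strands, in capitals.
Dnaja1, chr4:40722218-40722467, plus strand: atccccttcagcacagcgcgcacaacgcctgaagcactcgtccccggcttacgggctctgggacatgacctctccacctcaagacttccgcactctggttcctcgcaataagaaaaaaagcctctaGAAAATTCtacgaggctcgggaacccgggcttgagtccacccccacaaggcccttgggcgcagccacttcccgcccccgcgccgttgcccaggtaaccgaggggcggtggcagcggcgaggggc
Dnajb1, chr8:83607925-83608174, plus strand: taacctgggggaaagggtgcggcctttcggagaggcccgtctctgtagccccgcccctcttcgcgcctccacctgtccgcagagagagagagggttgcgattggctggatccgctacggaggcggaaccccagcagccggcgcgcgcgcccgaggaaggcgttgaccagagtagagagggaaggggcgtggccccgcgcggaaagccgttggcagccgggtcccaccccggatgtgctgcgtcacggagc
The span given above for Dnaja1 starts at 40722150, so its printed window and the match lie inside that span, downstream of its start. Dnaja1 has other RefSeq starts farther downstream, whose windows hold no match. A match was present for 11 of the 26 tested heat shock genes with a promoter in the table (42.3%), against 12.3% of 9909 tested genes and 14.5% of 27025 genes in the table. Of 4 called heat shock genes with a promoter, 1 had a match.

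Nuclear genes of the mitochondrial respiratory chain and of the mitochondrial ribosome that passed were lower in HZ, by small amounts. Respiratory complexes pass electrons from NADH and succinate to oxygen, and ATP synthase uses the resulting proton gradient. In complex I, 14 of 36 tested genes fell and 0 rose (percent lower over all genes, 1.74%). The median was -0.21, and the log2 difference was negative for 36 of 36. The summed level of the complex I genes was 4106.5 to 4555.3 CPM in WT and 3373.3 to 4114.9 in HZ, so the groups met only at their edges. The lowest p-values in complex I belonged to Ndufb7 (-0.32 ± 0.07), Ndufs3 (-0.20 ± 0.05), Ndufs8 (-0.27 ± 0.07) and Ndufc1 (-0.27 ± 0.07). In complexes II and III 2 of 14 fell, namely Sdhb (-0.25 ± 0.06) and Uqcrh (-0.27 ± 0.07), and in complex IV 5 of 12 fell.

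Cox6a1, a nuclear-coded subunit of cytochrome c oxidase (chromosome 5, 115345642 to 115348981), was at 274 to 364 CPM in WT (median 321) and 206 to 295 in HZ (median 253). It fell by 0.34 ± 0.07 (adjusted p = 0.0175), with 6 HZ animals below the WT range, and did not pass without the 5 HZ animals (adjusted p = 0.0709). Atp5h, a peripheral stalk subunit of ATP synthase (chromosome 11, 115415689 to 115419962), was at 63.2 to 75.5 CPM in WT (median 67.8) and 47.0 to 60.6 in HZ (median 58.0). It fell by 0.30 ± 0.06 (adjusted p = 0.0134) without overlap and passed in every fit. Of 16 ATP synthase genes 3 fell, the others being Atp5e (-0.37 ± 0.07) and Atp5o (-0.22 ± 0.06). Among 75 mitochondrial ribosomal protein genes 13 fell and 0 rose, with a median of -0.18, led by Mrpl49, Mrpl13, Mrpl51 and Mrps28 at -0.22 to -0.27. Cytosolic ribosomal protein genes had a median of -0.19, and 3 of 79 fell (percent lower over all genes, 1.74%): Rpl13, Rpl18 and Rps26, at -0.41, -0.35 and -0.27. In that list 38 genes had an unadjusted p under 0.05, DESeq2 called 18 and limma 13, and 0 passed in edgeR without the 5 HZ animals.

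NRF1, a transcription factor of respiratory genes, binds a GC-rich palindrome. The promoters of Cox6a1 and Atp5h are shown because both hold a match to a looser form of that site, which most of the respiratory genes that fell lack. Matches to this NRF1 site, searched on both strands as a pair of GCGC units around a spacer of 2 bases that begins with A or ends with T, are in capitals in the 250 bases before the RefSeq start.
Cox6a1, chr5:115348959-115349208, minus strand: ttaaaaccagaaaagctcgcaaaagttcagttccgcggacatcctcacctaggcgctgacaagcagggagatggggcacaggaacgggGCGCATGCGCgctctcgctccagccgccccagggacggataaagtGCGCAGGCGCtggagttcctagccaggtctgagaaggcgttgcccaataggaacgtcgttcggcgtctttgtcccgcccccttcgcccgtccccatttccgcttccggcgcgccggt
Atp5h, chr11:115419920-115420169, minus strand: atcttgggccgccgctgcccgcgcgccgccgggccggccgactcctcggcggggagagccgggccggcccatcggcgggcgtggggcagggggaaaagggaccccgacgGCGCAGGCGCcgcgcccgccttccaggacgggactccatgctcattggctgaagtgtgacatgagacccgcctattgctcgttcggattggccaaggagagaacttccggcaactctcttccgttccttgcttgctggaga
Such a match was present for 9.2% of the tested genes and 4.23% of all genes in the table. It was present for 5 of 32 complex I genes, 2 of 9 genes of complexes II and III, 1 of 10 complex IV genes, 4 of 12 ATP synthase genes and 9 of 66 mitochondrial ribosomal genes. Of 13 complex I genes that fell, 1 had a match. The same held for 0 of 2 in complexes II and III, 1 of 4 in complex IV, 1 of 2 in ATP synthase and 2 of 11 in the mitochondrial ribosome. The match in Atp5h is not a full palindrome.

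These decreases stood beside a trend with transcript length. In the shortest 25% of genes, with 65 to 2778 bases of exon, 8 rose and 122 fell, and the median log2 difference was -0.08. In the longest 25%, with 6810 to 123179 bases, 99 rose and 16 fell, and the median was 0.09. The median exon length was 1644 bases for the complex I genes and 2172 for the mitochondrial ribosomal genes. The slope of log2 CPM on log2 exon length was -0.0798 ± 0.0306 in WT and -0.0272 ± 0.0454 in HZ libraries (SD, n = 7; exact permutation p = 0.0297, adjusted p = 0.0446). Once that trend was taken out of each library, 329 genes passed, 227 of them among the 398, and 95 were higher (0.754%) and 234 lower (1.86%). Complex I then had 9 genes lower and a median of -0.14, the mitochondrial ribosome 9 and -0.15, and complex IV 2 and -0.13. Heat shock genes, with a median exon length of 3931 bases, had 6 lower and a median of -0.20. Without the 5 HZ animals 1 complex I gene, Ndufb7, and 0 mitochondrial ribosomal genes passed, with medians of -0.15 and -0.14. In complexes II and III and in complex IV 0 genes passed without these animals in edgeR, where with all animals 10 and 8 had an unadjusted p under 0.05 and DESeq2 called 8 in each, and limma 6 and 8. For the mitochondrial ribosome, 56 of the 75 had an unadjusted p under 0.05 with all animals in edgeR, DESeq2 called 35 and limma called 29.

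**Figure D3:**
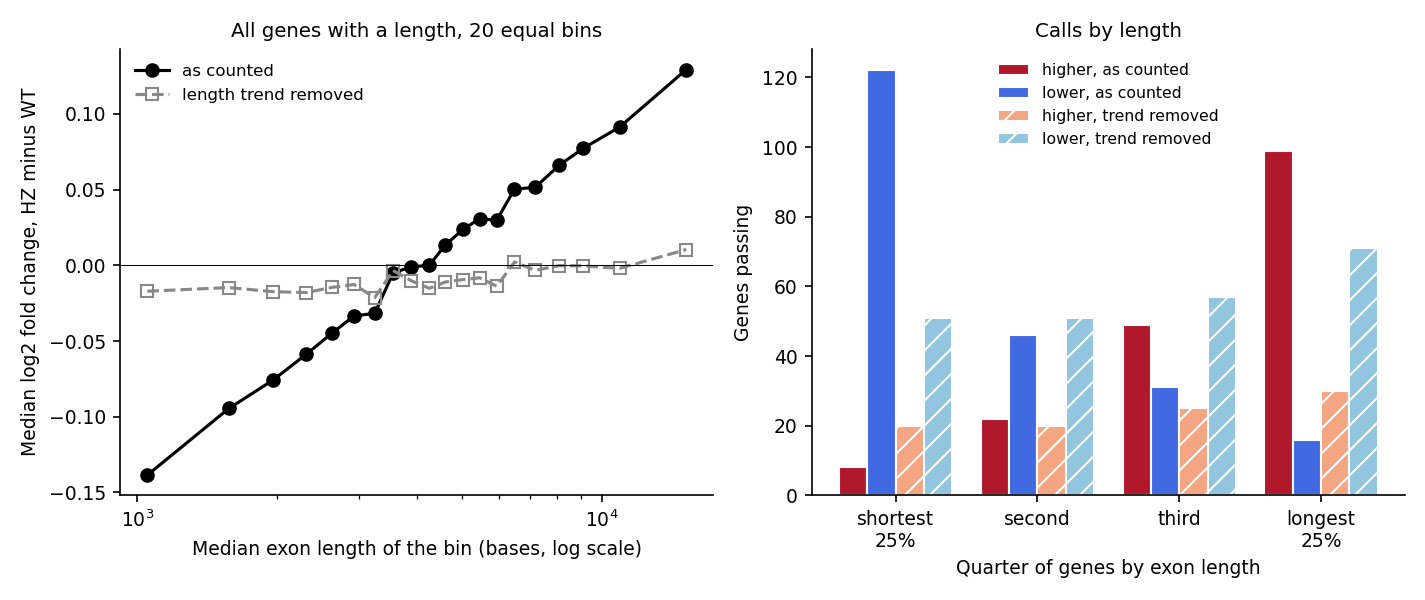
Left: median log2 fold change, HZ minus WT, of genes in 20 bins of exon length (log axis), as counted and with the length trend removed. Right: genes that passed in each 25% of genes by length; 122 of the shortest fell and 99 of the longest rose as counted, against 51 and 30 with the trend removed.

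In the fit reported, some genes of peroxisomal beta-oxidation and 0 of mitochondrial beta-oxidation passed between genotypes under WY. Peroxisomal and mitochondrial beta-oxidation shorten fatty acids, and their genes are textbook PPARα targets. Of 29 peroxisomal genes 1 rose and 2 fell (percent higher and lower over all genes, 1.42% and 1.74%). Those that fell were the thiolase Acaa1a (-0.26 ± 0.07) and Mlycd (-0.27 ± 0.07), which degrades malonyl-CoA. The median of the 29 was -0.11. With the clock score as covariate 1 of the 29 rose and 7 fell, with a median of -0.25. That fit called 491 genes higher and 521 lower over all genes. Of 24 mitochondrial beta-oxidation genes 0 passed in edgeR, with 5 in DESeq2 and 3 in limma, and the median was -0.14. At an unadjusted p under 0.05 in edgeR there were 11 of the 24, against 3033 of all 12607 genes. With the clock score as covariate 1 of the 24 was higher and 3 were lower. Under vehicle 14 of the 29 peroxisomal and 11 of the 24 mitochondrial genes were lower in HZ (percent lower over all genes, 1.77%), with medians of -0.38 and -0.33, and 0 genes of any kind passed under vehicle without the 5 HZ animals. The interaction test, which asks whether the genotype difference changed with WY, called 0 of all 12607 genes, and so none of these. That result is not particular to these lists and does not show that their difference was unchanged.

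Lipid handling beyond oxidation showed single genes. Of 36 genes of lipid uptake, droplets and lipolysis 3 fell (percent lower over all genes, 1.74%). They were Slc27a1 and Hsd17b11, given above, and Agpat6 (-0.31 ± 0.08), a glycerol-phosphate acyltransferase. All 3 had a higher mean level under WY than under vehicle in WT: 25.0 against 5.08 CPM for Slc27a1, 1326 against 478 for Hsd17b11 and 426 against 230 for Agpat6. In cholesterol synthesis, 19 of 20 genes had positive values with a median of 0.47, and 0 passed in edgeR. At an unadjusted p under 0.05 there were 12, with 3 passing in DESeq2 and 0 in limma. Hmgcs1, which makes the HMG-CoA used for sterols, was at 284.8 to 642.5 CPM in WT (median 438.5) and 293.8 to 1110.0 in HZ (median 835.3), a difference of 0.76 ± 0.25 with overlapping groups (adjusted p = 0.0748). Srebf2, the transcription factor of this pathway, did pass: it was at 49.9 to 67.9 CPM in WT and 60.4 to 92.6 in HZ and rose by 0.38 ± 0.08 (adjusted p = 0.0176). Without the 5 HZ animals the median for cholesterol synthesis was 0.72, 1 gene passed, and Srebf2 rose by 0.47.

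Signalling and regulatory genes that rose were scattered over several lists. Axin2 and Rnf43, feedback inhibitors that Wnt signalling induces around the central vein, rose by 0.60 ± 0.16 and 0.50 ± 0.13 (adjusted p = 0.0441 and 0.0353), as 2 of 23 genes of that list (percent higher over all genes, 1.42%). Neither passed without the 5 HZ animals (adjusted p = 0.0709 and 0.0595), with the length trend removed (0.0589 and 0.0525) or with the clock score as covariate (0.215 and 0.105), and Axin2 passed in 8 of the 23 alternative fits. Axin2 was at 8.29 to 14.3 CPM in WT and 12.9 to 25.0 in HZ. Under vehicle the Axin2 difference was -0.41 and that of Rnf43 -0.23, neither of which passed, and the interaction gave an adjusted p of 0.301 for each. Of 46 nuclear receptors and partners 3 rose: Esr1, Rora (0.35 ± 0.09), which activates clock genes, and the coactivator Ncoa2 (0.24 ± 0.06). With the length trend removed these 3 did not pass (adjusted p = 0.0719, 0.0986 and 0.170). The G6pdx gene of the pentose phosphate pathway rose by 0.54 ± 0.14 and Stat5b, which relays growth hormone, by 0.26 ± 0.07, and neither passed without the 5 HZ animals (adjusted p = 0.308 and 0.141). Histone methylation and demethylation enzymes had 0 of 33 calls in edgeR, 16 at an unadjusted p under 0.05, 1 in DESeq2 and 7 in limma, with a median of 0.15.

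**Figure D4:**
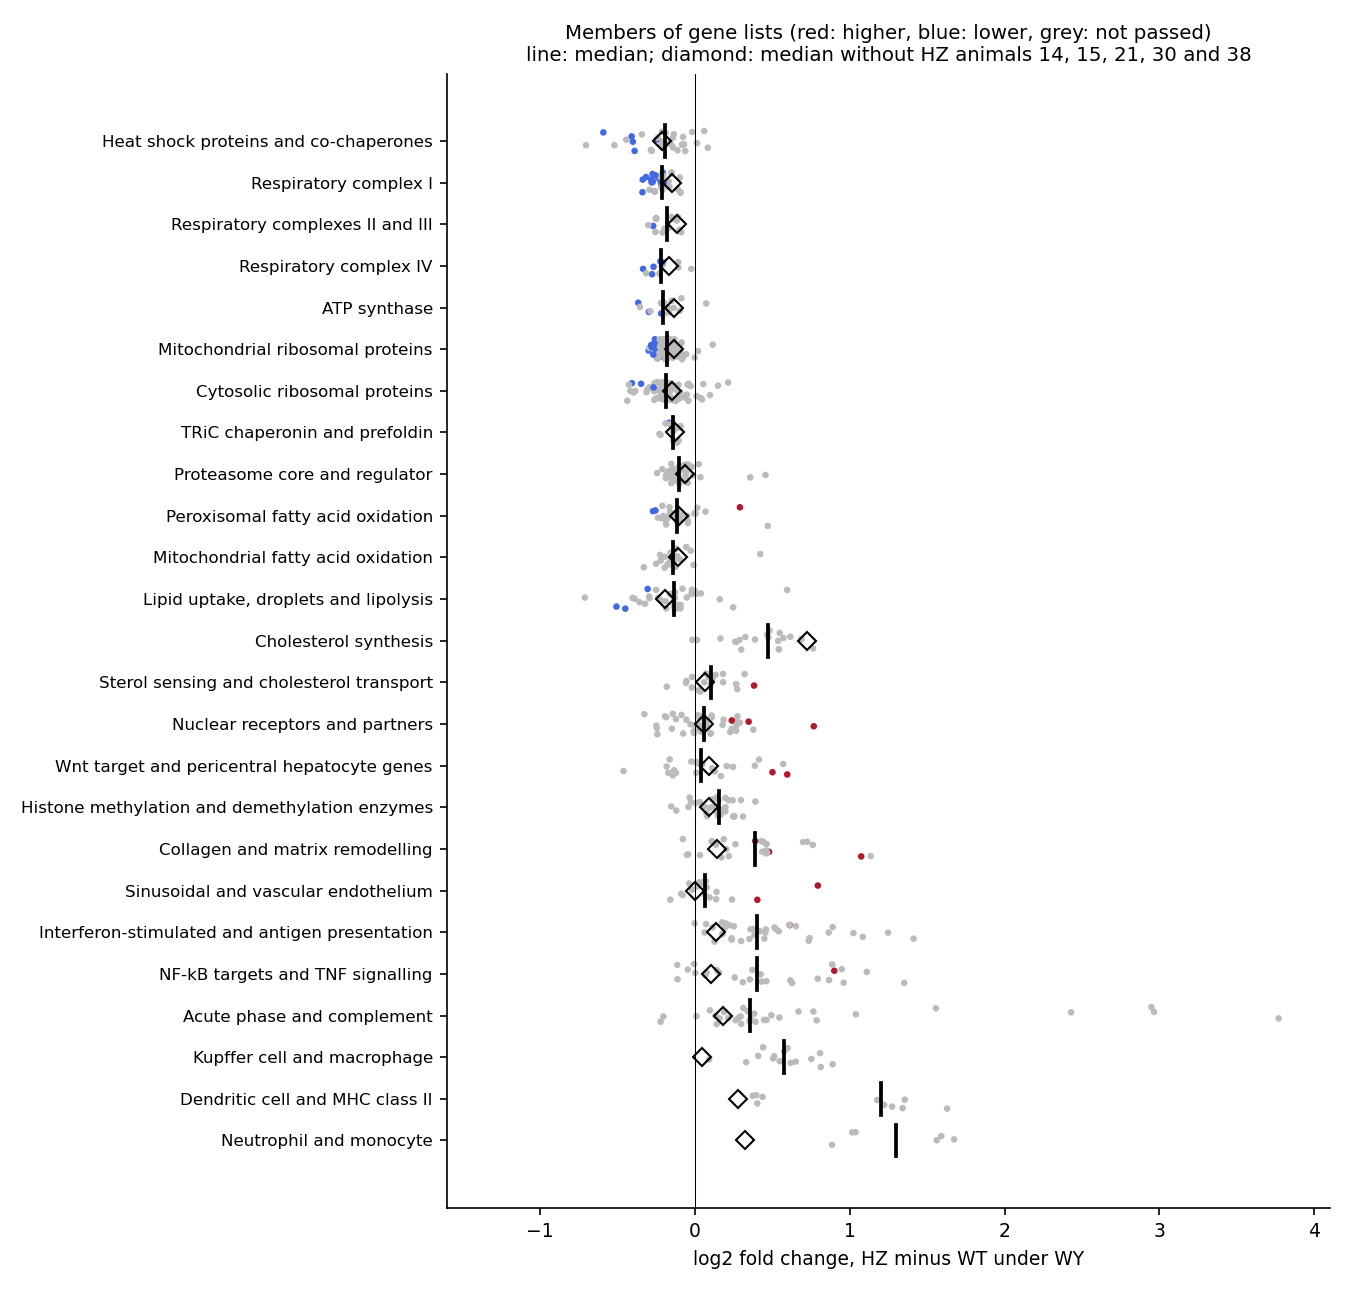
Log2 fold change, HZ minus WT under WY, of the tested members of 25 gene lists, with red and blue for genes that passed, a line at the median and a diamond at the median without HZ animals 14, 15, 21, 30 and 38. Line and diamond lie close together for chaperone, respiratory and ribosomal lists, and are far apart for the macrophage (0.58 and 0.05) and neutrophil lists (1.30 and 0.33).

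A few inflammatory and matrix genes passed, all of them higher in HZ. Of 27 collagen and matrix genes 3 rose, namely Col5a2 (1.07 ± 0.27), Col4a2 (0.48 ± 0.13) and Fn1, fibronectin (0.39 ± 0.11), and the list median of 0.39 was 0.14 without the 5 HZ animals. Col5a2 was weakly expressed, at 0.741 to 1.34 CPM in WT and 1.20 to 4.1 in HZ, with overlapping groups and HZ animal 21 highest. Irf5, an interferon regulatory factor of macrophages, rose by 0.61 ± 0.17 as the 1 of 36 interferon and antigen presentation genes that passed, and Tnfaip2 was the 1 of 26 NF-kB and TNF genes (percent higher over all genes, 1.42%). In edgeR 0 genes of the matrix, interferon and NF-kB lists passed without the 5 HZ animals, and the adjusted p was 0.194 for Irf5 and 0.0778 for Tnfaip2. With all animals 9, 12 and 9 genes of these lists had an unadjusted p under 0.05, DESeq2 called 3, 3 and 6, and limma 4, 1 and 2. Among 32 genes of the acute phase and complement edgeR called 0, with 16 at an unadjusted p under 0.05, 7 in DESeq2 and 3 in limma. The iron-binding acute phase gene Lcn2 was at 1.94 to 6.98 CPM in WT and 2.45 to 153 in HZ, a difference of 3.77 ± 1.10 (adjusted p = 0.0576), and its difference was 0.78 without the 5 HZ animals.

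Markers of other liver cell types were also high in some HZ animals. The 15 macrophage and Kupffer cell markers, 15 of 15 with reads, summed to 407 to 643 CPM in WT and 476 to 1223 in HZ, with animals 14, 21 and 15 highest. The 12 dendritic and MHC class II markers summed to 93.6 to 149 CPM in WT and 109 to 881 in HZ, highest in animal 21. Neutrophil and monocyte markers, 10 of 11 with reads, summed to 5.16 to 7.69 and 6.26 to 32.6 CPM. Of the tested markers in these 3 lists, 15, 10 and 6, edgeR called 0, with 12, 7 and 4 at an unadjusted p under 0.05. DESeq2 called 5, 5 and 4 of them and limma 0. Their part in the rises of inflammatory and matrix genes was not tested. Of 18 endothelial markers 2 rose, Heg1 and Cdh5 (0.40 ± 0.10; percent higher over all genes, 1.42%). Neither passed without the 5 HZ animals (adjusted p = 0.0600 and 0.253), and the 18 summed to 509 to 620 CPM in WT and 530 to 672 in HZ. Erythroid markers, 4 of the 6 found with reads, summed to 189.8 to 636 CPM in WT and 169.6 to 348 in HZ, with Hba-a1 and Hba-a2 at 0. Adipocyte markers, 6 of 8 with reads, summed to 554 to 1736 CPM in WT and 647 to 1943.5 in HZ, with Lep and Retn at 0.

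**Figure D5:**
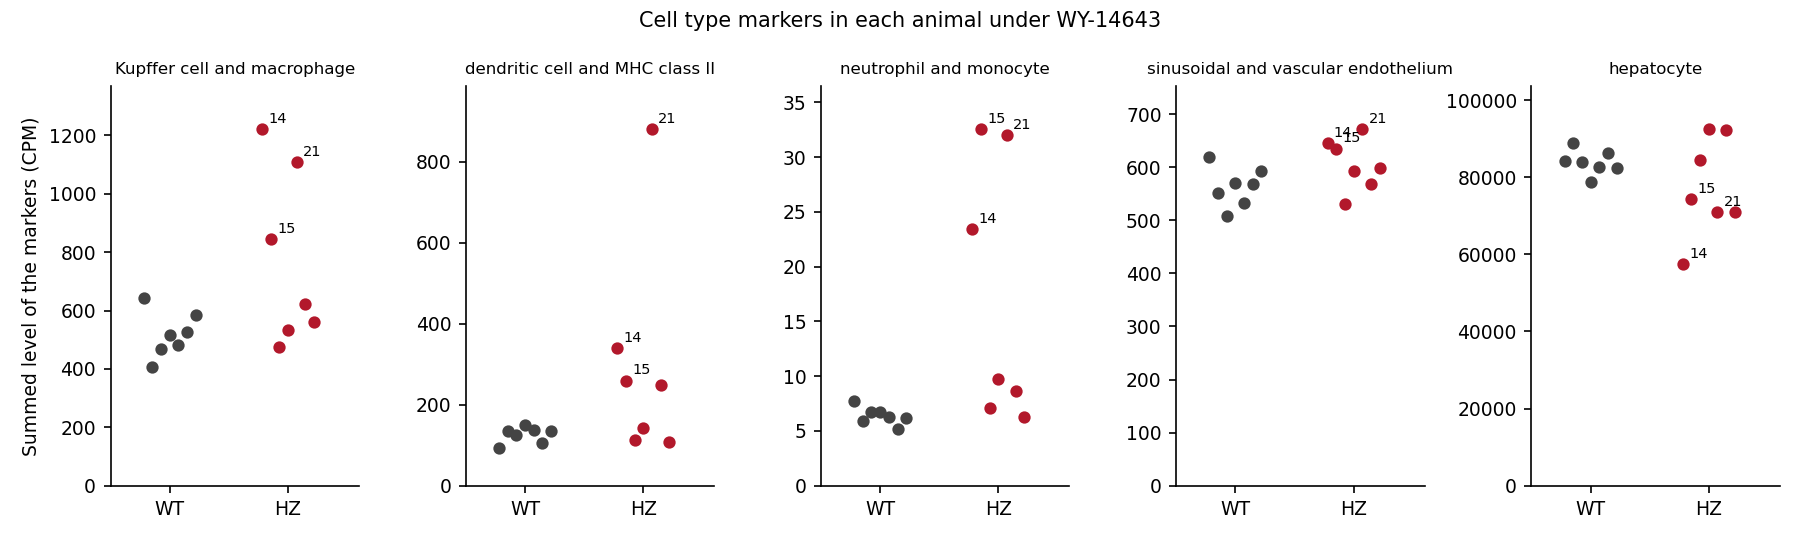
Summed CPM of 5 lists of cell type markers in each WY animal, WT in grey and HZ in red, with HZ animals 14, 15 and 21 numbered. The other 4 HZ animals lie in the WT range of 407 to 643 CPM for macrophage markers, and 1 of them is above the WT range for MHC class II markers.

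Set beside vehicle, 23 of the 398 genes also differed between genotypes there, which is 5.78% of the WY calls and 8.81% of the 261 vehicle calls (2.07% of the genes tested). Without the 5 HZ animals 0 genes passed under vehicle in edgeR, with 1297 at an unadjusted p under 0.05 (with all animals DESeq2 called 500 and limma 701). All 23 differed in the same direction, 6 higher and 17 lower. No library is shared between the vehicle and WY comparisons, though both come from 1 fit with a shared estimate of spread. Hsd17b11 fell by 0.51 under vehicle and by 0.45 under WY. Eif3m, a translation initiation subunit, fell by 0.25 and 0.27, and Mrpl51 by 0.22 and 0.25. Irf5 rose by 0.65 under vehicle and 0.61 under WY. The transcription factor Tshz2 rose by 0.34 and 0.47, the phosphatase Ptprf by 0.24 and 0.27, and the endosomal protein Wdr91 by 0.28 and 0.34. Emc6, Josd2 and Polr2m fell under both treatments.

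The interaction of genotype and WY was below the threshold for 0 of the 12607 genes in edgeR, with 1182 at an unadjusted p under 0.05, while DESeq2 called 3 and limma called 1. Dyrk2, a protein kinase that phosphorylates p53, had the smallest interaction p. It was at 20.8 to 25.9 CPM in WT and 28.03 to 34.3 in HZ under WY, without overlap, and rose there by 0.40 ± 0.09, while the vehicle difference was -0.28 ± 0.09. Its interaction was 0.68 ± 0.13 (adjusted p = 0.126). Next came Atxn1 and Proser1 (adjusted p = 0.274 each), which rose under WY by 0.76 and 0.34 and had vehicle differences of -0.33 and -0.14, and then Loxl4 and Rqcd1 (0.301 each).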

How the data were processed

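The authors deposited unnormalized counts by gene symbol, in a table of 14 vehicle and a table of 14 WY libraries. Per the submitters' processing notes, STAR 2.5.0a, HTSeq 0.6.1p1 and mm10 were used, and DESeq2 1.18.1 is named. Annotation and strand setting were not given in the sources used here. Overlapping genes, antisense genes and near-identical copies (ribosomal protein genes among them) are therefore uncertain. Per the labels, libraries came from 1 ug of total RNA with the NEBNext Ultra kit. In the WY libraries, 35.8 to 42.4% of the reads in the table were not placed uniquely and 6.35 to 7.82% were in no gene. Those rows, and 27 rows with 25 names turned into dates (0.224 to 0.246% of gene counts), were left out of sizes and tests, leaving 23393 symbols.

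Counts were filtered with filterByExpr, scaled by TMM and tested with robust quasi-likelihood fits in edgeR 4.0.16 (R 4.3.3) on all 28 libraries, with a mean per group, 24 residual degrees of freedom and Benjamini-Hochberg adjustment over 12607 genes. A gene passed below 0.05. SE is the absolute log2 change over the root of F. CPM use TMM-scaled library sizes, except summed CPM, which use plain totals, and log2 CPM a prior count of 2. Single values were compared by exact permutation (scipy 1.17.1). Alternatives were DESeq2 1.42.0 and its size factors, limma 3.58.1 (voom with quality weights), other filters, the 14 WY libraries alone, leaving libraries out, a length trend removed by offsets (lowess span 0.3, with exon lengths of GENCODE M21 for 99.2% of genes), and the clock score as covariate. Steps were tested on simulated data.

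The members and the 54 gene lists (1206 genes, 16 found under an older symbol and 8 not found) were chosen with earlier results of these data known, as were the 5 HZ animals left out, so the patterns are no independent support for those results. Named genes are Sirt6; the 12 largest rises and falls at a mean of 5 CPM or more; per list the called members, at most the 4 with the smallest p, or else the 2 with the smallest p; the 10 with the smallest p that passed in every fit that tested them; the 5 smallest interaction p; the 5 largest changes without overlap; and 10 called under both treatments. Ddx3y, Xist and markers at 0 were chosen after their values were seen. Results for some items are not reported here.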

Additional observations from a re-analysis of the deposited data

Results flagged for a closer look

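In 22 of 292 groups of 7 animals (146 named genes, each genotype under WY), 1 animal lay apart: its gap to the nearest of the others, as a share of the group's range of log2 CPM, was above 0.568. Chance flags about 1 in 20 groups.

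HZ animal 21 was lowest for Rpl13 (0.65), Mrpl51 (0.571), Psmb3 (0.762) and Tshz2 (0.596), and highest for Col5a2 (0.607) and Ciita (0.648, at 11.7 CPM). HZ animal 2 was lowest for Hspa8 (0.649), Ncoa2 (0.571), Ptprf (0.704), Abcb11 (0.633) and Cyp2b10 (0.707, with 0 reads). HZ animal 14 was lowest for Lss (0.642). WT animal 10 was highest for Rabac1 (0.576), Bdh1 (0.652) and Arhgap30 (0.572), and lowest for Rora (0.722) and Ciita (0.658). WT animal 19 was lowest for Rnf43 (0.569) and highest for Myc (0.725, at 51.8 CPM). WT animal 6 was highest for Rnf125 (0.61), animal 25 lowest for Mlycd (0.584) and animal 24 lowest for Ceacam1 (0.661).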

How the results depend on the processing

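Against 398 genes between genotypes under WY, 683 passed with DESeq2 size factors, 1102 in DESeq2, 934 in limma, 153 with no filter on low counts, 48 without HZ animals 14, 15, 21, 30 and 38, and 1012 with the clock score as covariate. Counts stayed within 1.5 times with the 14 WY libraries alone (485), a mean of at least 5 CPM (449) and the length trend removed (329). Leaving out 1 WY library gave 74 (without WT animal 19) to 977 genes (without HZ animal 2), and 107 without HZ 21, 126 without HZ 15, 124 without WT 11, 159 without WT 10, 226 without WT 24 and 250 without HZ 5. The interaction gave 3 genes in DESeq2 and 1 in limma against 0. The vehicle comparison gave 500 in DESeq2, 701 in limma and 0 without the 5 HZ animals (1297 at an unadjusted p under 0.05), against 261. The share of calls that were higher moved from 45.0% to 29.7% with DESeq2 size factors, 28.9% with the length trend removed and 58.3% without the 5 HZ animals. Sirt6 passed in every fit that tested it, at -0.98 to -1.15 with 1 library left out. Of 87 other called genes, 66 lost the call without the 5 HZ animals, 36 without the filter, 23 with the length trend removed and 59 without WT 19. The 1 named gene that reversed was Igj (reported as -0.08): 0.0108 with the clock score, and -0.18 to 0.05 (0.0492 without WT 10 and 0.0386 without WT 6) with 1 library left out. The cause of these changes was not tested. No paired analysis was possible because no animal number recurs between groups. Depth limits genes such as Efna3 and Sirt6, where an animal has few reads.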

Other observations

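Other gene groups are given as values. Of 20 tricarboxylic acid cycle genes Suclg1, a succinyl-CoA ligase subunit, fell by 0.20 ± 0.06 (edgeR adjusted p = 0.0438) and no other passed (percent lower over all genes, 1.74%). Of 38 proteasome genes edgeR called 0, with 15 at an unadjusted p under 0.05, 6 in DESeq2 and 5 in limma, and the median was -0.10. Hspa5, the chaperone of the endoplasmic reticulum also called BiP, was at 569 to 758 CPM in WT and 478 to 583 in HZ (-0.32 ± 0.10, adjusted p = 0.0687). Creld2, a further stress gene of that compartment, was at 37.8 to 54.0 CPM in WT and 29.8 to 35.1 in HZ, and these groups did not overlap (-0.53 ± 0.17, adjusted p = 0.0689). Pck1, the gluconeogenic enzyme, was at 716 to 1858 CPM in WT and 366 to 1335 in HZ (-0.54 ± 0.28, adjusted p = 0.249). Tug1, a noncoding RNA, rose by 0.27 ± 0.07 (adjusted p = 0.0305), as 1 of 11 tested nuclear-retained transcripts (percent higher over all genes, 1.42%).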
